A study of Mus musculus with 3 samples.

Results

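The cytosolic ribosomal protein (RP) genes were read as a group in single-nucleus RNA-seq of the mouse lumbar spinal cord. Members were chosen by symbol alone, as Rpl or Rps followed by a number (with an optional final a, x or l), together with Rplp0, Rplp1, Rplp2 and Rpsa, which gave 80 of the 31040 genes in the table, 49 of the large and 31 of the small subunit. The deposited counts are unique molecular identifiers (UMIs), each of which tags 1 captured RNA molecule, and 79 of the 80 genes had at least 1 UMI. Together they held 242987 UMIs, 0.118% of the 206486779 UMIs in 14662 nuclei, and a nucleus had a median of 9 RP UMIs.

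The cord came from 12 mice at an age of 90 days, with 3 mice of each sex in the SOD1G93A group and 3 of each sex among their wild-type (WT) littermates. SOD1G93A mice (B6.Cg-Tg(SOD1*G93A)1Gur/J) carry many copies of a human SOD1 transgene with a mutation of familial ALS under the human promoter, so that a mutant protein is made in most cells on top of mouse Sod1, and the WT mice (C57BL/6J) lack it. No other allele or treatment of the mice separated the groups, and the mice of both received ketamine with xylazine as anesthesia and were perfused with PBS. Nuclei were tagged per mouse with hashtags and processed in 3 pools, A, B and C, each with 1 mouse of every sex and genotype, and each mouse counted as 1 replicate.

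A ribosome joins a small subunit, which reads the mRNA, to a large subunit, which forms peptide bonds, and RP genes encode the proteins of both. RP mRNAs are among the most abundant mRNAs of the cytoplasm. Many begin with a run of pyrimidines, the terminal oligopyrimidine (TOP) motif, through which growth signals regulate their translation. The genes are short and their mature mRNAs leave the nucleus, so that an isolated nucleus retains pre-mRNA, mRNA on its way out, and cytoplasm that stays attached. The deposited percent.mt, which gives how much of a nucleus's UMIs fell on mitochondrial genes, in percent, counts RNA made in mitochondria and therefore outside the nucleus, and was used as the measure of cytosolic RNA against which the RP genes were set.

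RefSeq start sites (GRCm38.p6) were matched for 60 of the 80 members. They are shown here for 9 members whose values are described in the comparisons, as the 15 bases before and the 15 bases from the listed start, on the strand of the gene, with the longest run of C and T in capitals where it had at least 6 bases.
Rpl14, chr9:120571502-120571531, plus strand: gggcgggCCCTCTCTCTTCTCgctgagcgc
Rpl19, chr11:98026909-98026938, plus strand: tgggCTCTCCCCTTCgcagataatgggcgg
Rplp2, chr7:141447636-141447665, plus strand: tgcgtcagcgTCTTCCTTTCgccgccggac
Rpl10a, chr17:28328456-28328485, plus strand: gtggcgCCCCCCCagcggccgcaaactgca
Rpl6, chr5:121204486-121204515, plus strand: tggtcaCCTCCCgtcattgcttatagaccg
Rps3, chr7:99483695-99483724, minus strand: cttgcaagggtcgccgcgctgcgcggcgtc
Rpsa, chr9:120127751-120127780, plus strand: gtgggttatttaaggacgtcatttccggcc
Rpl24, chr16:55966260-55966289, plus strand: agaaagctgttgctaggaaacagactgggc
Rpl41, chr10:128549154-128549183, minus strand: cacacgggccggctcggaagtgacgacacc
The run was 14 bases long in Rpl14, 11 in Rpl19, 10 in Rplp2, 7 in Rpl10a and 6 in Rpl6. It spanned the listed start in Rpl14 and Rplp2. In Rpl19, Rpl10a and Rpl6 it ended before the listed start, so that it lay outside the listed transcript. A run of at least 6 C or T in any order, searched on the strand of the gene, was held by 37 of the 60 members (61.7%) and by 32.7% of 27025 genes in windows of the same 30 bases. Runs that lay before the listed start were counted too. For Rpl10a and Rpl19, which have 2 listed starts, the one with the longer run is shown. The motif was chosen after the values were seen, a match is a description of the letters only, and listed starts can differ from the start used in the cord.

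Depth ranged from 6411715 to 36668441 UMIs and from 548 to 2259 nuclei per mouse, and 25 of 30 cell type markers were highest in the deposited type they mark, the others including Cx3cr1, Prph, Cspg4 and Prx. Of the cell barcodes, 15 occurred in more than 1 pool and 0 in all 3.

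Levels over all nuclei of a mouse are given in CPM (UMIs of the gene per 1000000 UMIs of the mouse). Among the 5 members of highest level were Rps29 at 40.7 ± 12.1 CPM (SD, n = 12 mice), Rpl11 at 40.4 ± 4.85, Rps24 at 39.6 ± 10.3 and Rpsa, also known as the laminin receptor, at 39.5 ± 11.6. Their ranges over the mice overlapped. A UMI count at the 3′ end need not scale with the length of the transcript, so an order of genes depends on whether length is divided out. Per kilobase of the longest coding transcript, Rps29 was first at 104 CPM per kb, and Rpl11 (48.4) was also among the 5 highest, while Rps24 (24.6) and Rpsa (20.4) were not. Of the 80 members 73 exceeded 1 CPM. Rpl11, which carries the small rRNA of the large subunit and binds Mdm2 in the stress response of the nucleolus, had the smallest spread over mice of these genes.

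At the low end were paralogs of limited expression. Rpl39l, known from testis, had 3 UMIs in 2 mice and Rpl10l, another testis paralog, had 8 UMIs in 5 mice, while Rpl3l, known from muscle, had 146 UMIs (0.678 ± 0.231 CPM) and was found in all 12 mice. Rpl3l had 34 UMIs in astrocytes (3.19 ± 2.29 CPM) and 86 in neurons (0.606 ± 0.190 CPM) but 0 UMIs in endothelial nuclei, where most members were highest. Rps27l, the p53-responsive paralog of Rps27, had the common pattern instead, with 55.2 ± 23.6 CPM in endothelial and 1.81 ± 0.600 CPM in neuronal nuclei. Rps27 itself had 136 UMIs (0.673 ± 0.254 CPM), and 70.1% of the 90-base windows near its 3′ end occur in another annotated gene, the most in Rps27rt, which had 3206 UMIs. Rpl13, the member without a UMI, shared 86.5% of these windows with other genes.

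RP genes have many processed copies, and 27 members shared at least 50% of the windows in their last 400 bases exactly with another annotated gene, while 29 shared none. The median level, not divided by length, was 9.61 CPM in these 27 members and 15.8 CPM in the other 53. Among the 20 members of lowest level 9 were of this kind and among the 20 of highest level 4. The levels of such members are uncertain, since a read that matches several genes equally is not counted. For 6 members the gene that shared the most windows held more UMIs than the member, and 3 of them were under 50%. These were Rpl9 (872 UMIs against 9924 of Rpl9-ps6), Rplp2 (1495 against 5773 of Wdr89) and Rplp1 (3661 against 5918 of Gm10073), whose levels and ratios are uncertain too.

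RP UMIs were unevenly spread over the cell types. They made up 1.37% ± 0.482 (SD, n = 12 mice, range 0.773 to 2.25%) of the UMIs in endothelial nuclei and 0.789% ± 0.234 (0.402 to 1.08%) in the Schwann and meningeal group. Astrocytes followed with 0.276% ± 0.0685 (0.169 to 0.429%). The order continued with ependymal nuclei at 0.233% ± 0.0927 (11 mice), fibroblasts at 0.179% ± 0.0903 (10 mice), oligodendrocytes at 0.0928% ± 0.0182, oligodendrocyte precursors (OPCs) at 0.0800% ± 0.0262, neurons at 0.0623% ± 0.0137, microglia at 0.0532% ± 0.0151 and motor neurons at 0.0477% ± 0.0261. Endothelial and Schwann and meningeal nuclei thus formed the upper end and neurons, microglia and motor neurons the lower end.

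The ranges over mice of every pair of neighbours in this order overlapped. Within mice, the first of the pair was higher in 12 of 12 mice for the endothelial group over the Schwann and meningeal group and again for the latter over astrocytes, but in 6 of 9 mice for ependymal nuclei over fibroblasts and in 9 of 12 for microglia over motor neurons. The ratio of the endothelial to the neuronal share was between 13.7 and 33.7 in every mouse (median 23.1), and that of astrocytes to neurons between 3.31 and 7.69 (median 4.32). The types differ in depth, with medians over mice of the median UMIs per nucleus of 6910 in endothelial nuclei, 1331.5 in the Schwann and meningeal group, 12111 in neurons and 48065 in microglia, and in percent.mt, with means of 3.34, 2.52, 0.382 and 0.203 in the same order. The part of both in the order of the types was not tested, and differences between types are given without a test.

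**Figure D1:**
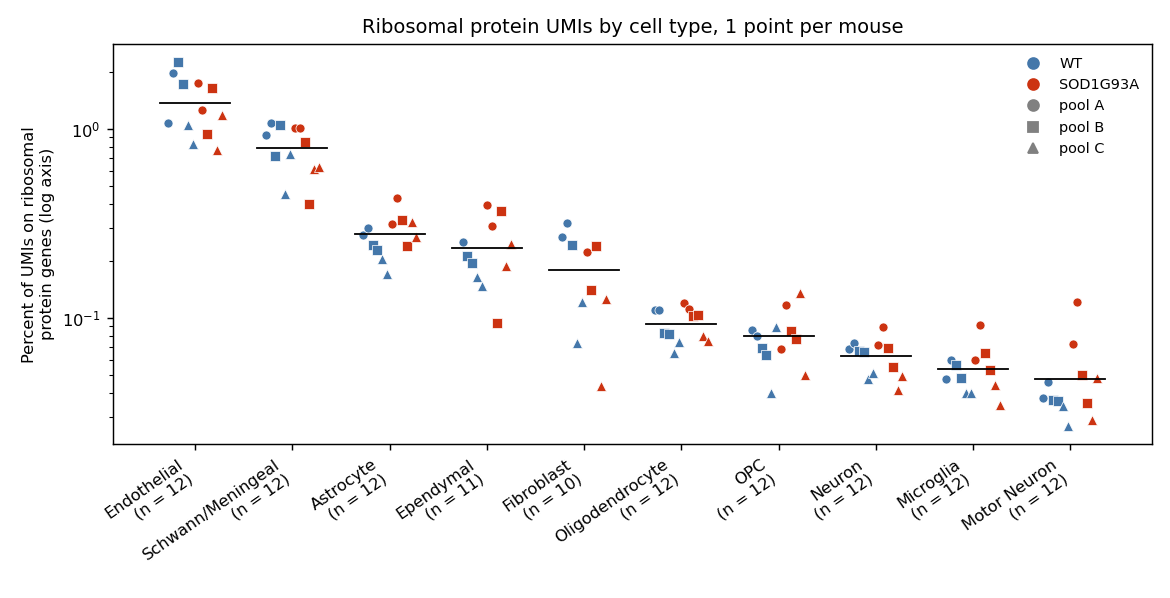
Percent of UMIs on RP genes (log axis) in each of the 10 deposited cell types, 1 point per mouse coloured by genotype. Endothelial nuclei range from 0.773 to 2.25% and neurons from 0.0416 to 0.0892%, with no overlap, while neighbouring types in the order overlap.

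Most members were highest in the same type. In the mean over mice, 66 of the 79 detected members were highest in endothelial nuclei, 8 in the Schwann and meningeal group, 3 in astrocytes (Rpl10l, Rpl3l and Rps27) and 2 in ependymal nuclei. The place of Rpl10l rests on 8 UMIs over all types. The share of all genes that were highest in endothelial nuclei is not given. For 67 members every endothelial value lay above every neuronal value, as did those of 14.4% of the 25777 genes with a UMI in either type. Rps29 was at 613 ± 214 CPM in endothelial and 14.6 ± 3.46 CPM in neuronal nuclei. The acidic stalk proteins, which recruit elongation factors, were higher in endothelial nuclei by different factors (34.2, 27.8 and 14.3 times for Rplp0, Rplp1 and Rplp2), with Rplp0 at 219 ± 85.1 against 6.39 ± 1.72 CPM, Rplp1 at 222 ± 53.5 against 8.0 ± 1.58 and Rplp2 at 64.2 ± 18.9 against 4.47 ± 1.2.

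The size of the difference was not the same for all members. Over the 75 members with at least 100 neuronal UMIs, the endothelial level was a median of 20.4 times the neuronal level and lowest for Rps13 at 2.72 times. Rpl11 was near the low end, at 210 ± 81.5 against 32 ± 3.63 CPM, a ratio of 6.54. The mixture of members also differed by subunit. Small-subunit genes held 48.2% ± 0.641 of RP UMIs in endothelial nuclei (47.1 to 49.0%) and 42.5% ± 0.908 in neurons (41.3 to 44.9%), with no overlap between the 12 mice of each, and 47.7% ± 1.01 in astrocytes.

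Within neurons, the share was between 0.0485% ± 0.0148 in the sub-type labelled VI and 0.0747% ± 0.0161 in that labelled DE. Their ranges over the 12 mice overlapped. Among astrocyte sub-clusters the spread was wider, from 0.111% ± 0.0252 in sub-cluster 1 to 0.930% ± 0.252 in sub-cluster 4, whose mean percent.mt was 0.553 and 5.81. The lowest value of sub-cluster 4 over the mice (0.519%) was above the highest of sub-clusters 0 (0.376%), 1 (0.161%), 2 (0.182%) and 3 (0.429%).

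In most types the RP share was higher in nuclei with a higher percent.mt. The 93 ependymal nuclei gave no clear direction, with 0.215% ± 0.108 at a percent.mt between 2 and 5 and 0.246% ± 0.132 at 5 and above (4 mice each). In astrocytes the share rose from 0.111% ± 0.0317 in nuclei with a percent.mt under 0.5 to 0.404% ± 0.0710 between 2 and 5 (12 mice each) and 0.895% ± 0.197 at 5 and above (11 mice). Neurons went from 0.0553% ± 0.0121 under 0.5 to 0.175% ± 0.0353 between 2 and 5 (11 mice). Across nuclei the Spearman correlation of the RP share with percent.mt was 0.734 in 1555 astrocytes, 0.451 in 8800 neurons, 0.426 in 2165 oligodendrocytes, 0.264 in 501 endothelial nuclei, 0.153 in 1031 Schwann and meningeal nuclei and 0.0495 in 93 ependymal nuclei. These are descriptions, since nuclei of a mouse share library and depth and both measures divide by UMIs of the same nucleus.

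At a like percent.mt the types still differed. Between 1 and 2, the share was 1.11% ± 0.460 in endothelial nuclei (8 mice), 0.789% ± 0.263 in the Schwann and meningeal group (11 mice), 0.258% ± 0.0920 in astrocytes (12 mice), 0.187% ± 0.0622 in oligodendrocytes (10 mice) and 0.120% ± 0.0195 in neurons (12 mice). Every endothelial value there (0.508 to 1.75%) was above every neuronal value (0.0812 to 0.150%). Ependymal nuclei had the highest mean percent.mt of the types, 5.32, with a share of 0.233%, below that of astrocytes with a mean percent.mt of 2.01. Across the 10 types the means of the 2 measures had a Spearman correlation of 0.794 and a Pearson correlation of 0.517, a description over types that share mice and pools.

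**Figure D2:**
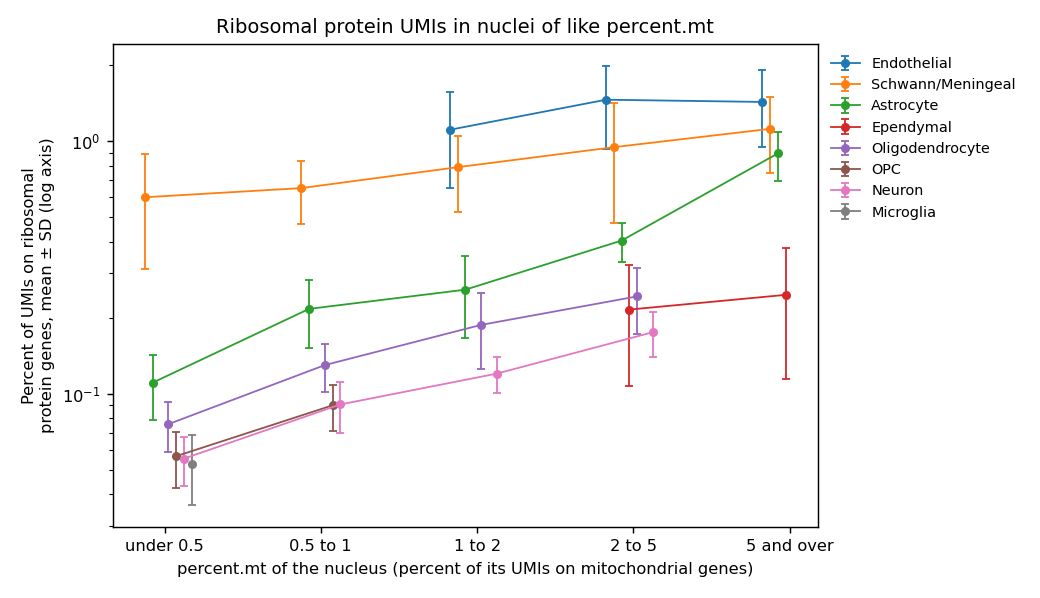
Percent of UMIs on RP genes (log axis, mean ± SD over mice) in nuclei binned by percent.mt, 1 line per cell type. Astrocytes climb from 0.111% under 0.5 to 0.895% at 5 and above, and between 1 and 2 endothelial nuclei (1.11%) lie above neurons (0.120%).

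To test this with the mouse as replicate, the nuclei of each type in each mouse were divided at the median percent.mt into a lower and an upper group of like size, and UMIs were summed in both. The RP share was higher in the upper group in 12 of 12 mice in astrocytes, where its median was 0.435% (0.304 to 0.604%) against 0.144% (0.0733 to 0.304%), in 12 of 12 in oligodendrocytes, at 0.140% (0.0795 to 0.166%) against 0.0701% (0.0458 to 0.0926%), and in 12 of 12 in neurons, at 0.0862% (0.0548 to 0.113%) against 0.0520% (0.0346 to 0.0724%). Only in astrocytes did the groups fail to overlap among these 3 types, the highest lower value and the lowest upper value being nearly equal. It was higher in 10 of 12 mice in endothelial nuclei, 9 of 12 in the Schwann and meningeal group and 10 of 12 in microglia, and in 3 of 10 in ependymal nuclei. Ependymal upper groups held as few as 1 nucleus.

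Single members were tested with limma across all genes of a type, with a term for the mouse and a false discovery rate (FDR) of 0.1. In neurons 61 of 66 tested members were higher in the upper group and 0 lower, where 21.8% of all genes tested were higher. In oligodendrocytes the count was 24 of 26 (4.86% of all genes), in astrocytes 43 of 43 (20.8%) and in endothelial nuclei 49 of 55 (14.6%). It was 1 of 36, Rps3, in the Schwann and meningeal group (0.911% of all genes) and 0 of 2 in microglia (0% of all genes, 1 member at an unadjusted p under 0.05, and 0 calls by edgeR and by DESeq2). The median log2 difference of the members was 1.59 in astrocytes, 0.93 in oligodendrocytes, 0.69 in neurons, 0.48 in endothelial nuclei and 0.34 in the Schwann and meningeal group, against medians of all genes of at most 0.02. The size in the different types was not compared by a test.

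The 5 members of smallest adjusted p were all of the small subunit in neurons and in oligodendrocytes. Rps29 had a median of 21.5 CPM (14.7 to 29.6) in the upper and 9.57 CPM (4.62 to 14.2) in the lower group of neurons, higher in 12 of 12 mice and with no overlap between the groups (log2 difference 1.11 ± 0.07 SE, adjusted p = 1.21e-12 by limma). Rps24 (0.94 ± 0.06), Rpsa (0.92 ± 0.06) and Rps3 (1.07 ± 0.08) were each higher in 12 of 12 mice as well. The same 5 genes led in oligodendrocytes, with log2 differences of 1.22 for Rps29, 1.03 for Rpsa, 1.44 for Rps3 and 1.10 for Rps24. The stalk proteins rose in neurons too, by 0.85 for Rplp0, 0.93 for Rplp1 and 0.62 for Rplp2 on the log2 scale.

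In astrocytes, Rpsa had a median of 183 CPM (119 to 251) in the upper and 51.2 CPM (14.2 to 105) in the lower group, and these did not overlap (log2 difference 1.74 ± 0.12 SE, adjusted p = 1.38e-11 by limma). Rpl8 (1.71 ± 0.13), Rps9 (1.69 ± 0.13), Rps24 (1.71 ± 0.14) and Rpl26 (1.80 ± 0.15) came next, each higher in 12 of 12 mice. In endothelial nuclei the leading members were Rps3 (0.57 ± 0.10), Rps24 (0.54 ± 0.10), Rpl29 (0.63 ± 0.12), Rplp0 (0.66 ± 0.13) and Rpl11 (0.62 ± 0.12). Rps3 there was at a median of 424 CPM (175 to 829) against 270 CPM (177 to 483), higher in 11 of 12 mice with wide overlap of the groups. Rps3 was also the member called in the Schwann and meningeal group (0.76 ± 0.23, adjusted p = 0.096), where the count was 13 without male SOD1G93A B, 3 without female WT C and 0 without any 1 of 7 other mice.

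Some members did not pass the test. In neurons these were Rps15a (0.21 ± 0.10), Rpl31 (0.29 ± 0.14), Rpl9 (0.12 ± 0.12), Rps13 (0.09 ± 0.11) and Rpl11 (0.03 ± 0.06). Rpl11 in neurons had a median of 31.9 CPM (22.6 to 45.9) in the upper and 31.6 CPM (26.0 to 36) in the lower group and was higher in 7 of 12 mice. When the groups were formed within neuron sub-types, Rpl11 was called higher, at 0.13 ± 0.05 (adjusted p = 0.0642 by limma). In oligodendrocytes the members not called were Rpl5 (0.50 ± 0.18) and Rpl11 (0.32 ± 0.11), which bind the same small rRNA. Both passed when the groups were formed within sub-clusters, at 0.58 (adjusted p = 0.0583 by limma) and 0.37 (adjusted p = 0.0723 by limma). In endothelial nuclei they were Rpl37a, Rps6, Rpl34, Rpl30, Rplp2 and Rpl23a, with log2 differences between 0.21 and 0.37, whereas Rpl11 was among the leading members there. Across the 66 members tested in neurons, the log2 difference had a Spearman correlation of −0.18 with the length of the gene on the genome. It was −0.45 over 26 members in oligodendrocytes, −0.10 over 43 in astrocytes and 0.17 over 55 in endothelial nuclei, so that its sign was not the same in every type. These descriptions, chosen after the values were seen, are across genes.

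**Figure D3:**
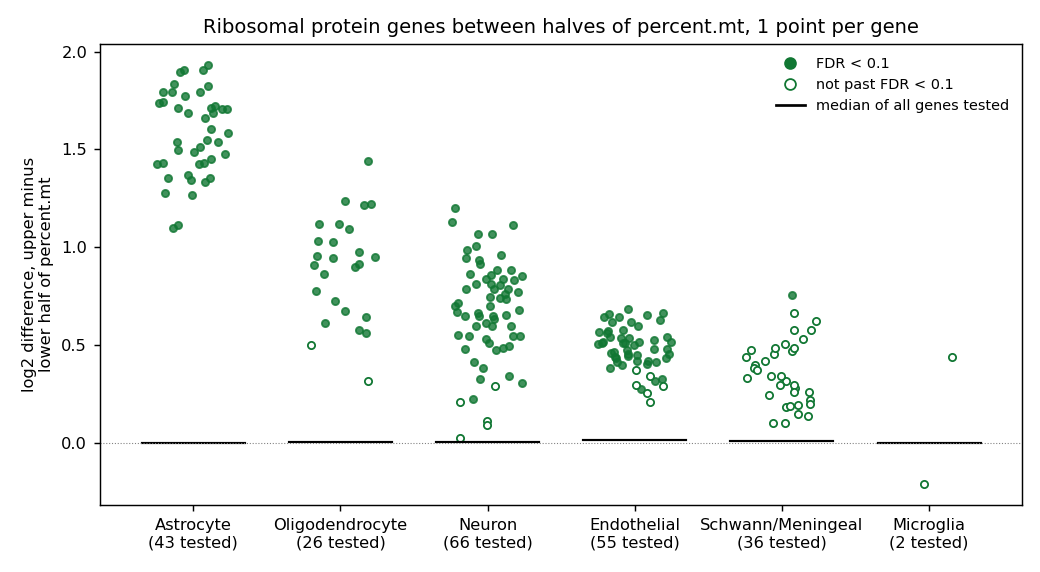
Log2 difference of each tested RP gene between the upper and the lower group of percent.mt in 6 cell types, filled where FDR < 0.1, with the median of all genes tested as a line. In astrocytes the 43 members lie between 1.10 and 1.93, in neurons 66 members reach from 0.03 to 1.2, and the lines of all genes lie near 0.

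Other gene groups of translation, respiration and the nucleus were counted in the same fits. Of all genes tested, 20.4% were lower in the upper group in neurons, 3.66% in oligodendrocytes, 16.6% in astrocytes and 8.75% in endothelial nuclei. Mitochondrial RP genes, whose mRNAs are also translated in the cytosol, had 29 higher and 4 lower of 72 tested in neurons, 0 of 13 in oligodendrocytes, 2 higher of 8 in astrocytes and 2 higher of 3 in endothelial nuclei. In neurons Mrps34 (log2 difference 0.78), Mrps33 (0.37) and Mrpl27 (0.34) led. Translation factors had 24 higher and 3 lower of 52 in neurons, 4 higher of 31 in oligodendrocytes, 17 higher and 1 lower of 29 in astrocytes and 13 higher of 27 in endothelial nuclei. Eef1a1, the factor that brings aminoacyl-tRNA, was 0.93 higher in neurons and 1.84 higher in astrocytes on the log2 scale. Other genes with TOP mRNAs or ribosomal products, some of which are translation factors, had 12 higher of 17, 5 of 11, 12 of 13 and 11 of 15 in the same order of types, with Tpt1 at 1.01 and Fau, which encodes a small-subunit protein fused to a ubiquitin-like one, at 0.77 in neurons.

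Ribosome assembly genes, which act mainly in the nucleolus, had 4 higher and 2 lower of 19 in neurons, 0 of 9 in oligodendrocytes, 1 of 1 (Ncl, 0.61) in astrocytes and 0 of 2 in endothelial nuclei. In neurons Ncl was 0.24 higher and Fbl 0.22 lower (log2 difference −0.22). Nuclear-encoded respiratory chain genes had 48 higher and 2 lower of 71 in neurons, 15 higher of 34 in oligodendrocytes, 42 higher of 49 in astrocytes and 34 higher of 49 in endothelial nuclei, with Cox8a at 0.67 in neurons and 1.04 in astrocytes. RNA kept in the nucleus went the other way, with 5 lower and 1 higher of 8 in neurons, 2 lower of 8 in oligodendrocytes, 5 lower of 7 in astrocytes and 4 lower of 5 in endothelial nuclei. Examples were Kcnq1ot1 at −0.24 in neurons and −0.46 in astrocytes, and Meg3 at −0.14 and −1.05. The median log2 differences in neurons were 0.16 for mitochondrial RP genes, 0.12 for translation factors, 0.39 for other TOP genes, 0.05 for assembly genes, 0.34 for respiratory chain genes and −0.19 for nuclear RNA, beside 0.69 for the cytosolic RP genes.

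Nuclei of the upper group had fewer UMIs. The medians over the nuclei of all mice together were 10563 against 15848 UMIs per nucleus in neurons, 4996 against 5727 in astrocytes, 4888 against 6845 in oligodendrocytes and 6065 against 8294.5 in endothelial nuclei. When the groups were formed within 5 classes of UMIs per nucleus, the counts called were 54 of 66 in neurons, 43 of 43 in astrocytes, 17 of 27 in oligodendrocytes and 49 of 56 in endothelial nuclei, all higher, where 9.19%, 20.1%, 2.36% and 11.9% of all genes were higher, with medians of 0.45, 1.57, 0.69 and 0.49. Groups formed within each neuron sub-type or glial sub-cluster, chosen after the data were seen, gave 59 of 66, 43 of 43 and 26 of 26 in neurons, astrocytes and oligodendrocytes (13.8%, 11.4% and 5.91% of all genes higher), and the median of the astrocyte members fell from 1.59 to 0.82. Without the term for the mouse the endothelial count was 0.

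The pools differed in RP UMIs, with genotype and sex balanced in each. The neuronal share was 0.0757% ± 0.00930 in pool A (n = 4 mice, 0.0682 to 0.0892%), 0.0640% ± 0.00617 in pool B (0.0550 to 0.0689%) and 0.0473% ± 0.00412 in pool C (0.0416 to 0.0512%), so that pool C lay below every mouse of the other pools. Percent.mt did not follow this order, with means of 0.401 in A, 0.354 in B and 0.393 in C, and the median UMIs per nucleus were close, at 12185, 12696 and 11891. The share was also lowest in pool C in endothelial nuclei (1.52, 1.64 and 0.958% in A, B and C), the Schwann and meningeal group (1.01, 0.755 and 0.606%), astrocytes (0.329, 0.259 and 0.240%), oligodendrocytes (0.113, 0.0923 and 0.0735%) and microglia (0.0644, 0.0555 and 0.0396%). In OPCs it was lowest in pool B (0.0878, 0.0738 and 0.0784%). In oligodendrocytes the 3 pools did not overlap, at 0.110 to 0.120%, 0.0816 to 0.103% and 0.0652 to 0.0797%.

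Of 73 members tested in neurons, 22 differed between pools (limma F test over both pool terms, FDR < 0.1), where 4.06% of all genes did. All 22 were lower in C than in A, by a median of 0.79 on the log2 scale (−0.79, range −0.95 to −0.58), and 72 of the 73 were lower in C. The share of all genes that were lower in C than in A is not given here or in the other types. The smallest adjusted p was that of Rpl6, a large-subunit protein (adjusted p = 0.0165). Rpl6 was at 22.3, 31.7, 25.5 and 35.2 CPM in the mice of pool A, at 35.7, 33.5, 33.4 and 24.4 in pool B and at 14.4, 17.1, 12.1 and 14.8 in pool C, so that it was lower in C alone. Rpl19 fell stepwise instead, with 19.1 to 26.6 CPM in A, 13.2 to 16.8 in B and 8.38 to 12.4 in C (adjusted p = 0.0279 by limma).

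Rpl32 was at 11.1 to 14.3 CPM in A, 8.75 to 10.5 in B and 4.81 to 7.04 in C. Rpl21 stood at 9.57 to 14.1 CPM in A, 7.65 to 10.7 in B and 4.53 to 7.38 in C, and Rpsa at 24.7 to 31.2, 17.8 to 24.7 and 13.2 to 20.0. In each of these named genes all mice of pool C were below all mice of pool A. The count depended on single mice, from 2 without male SOD1G93A C and 3 without female WT C, male WT C or female SOD1G93A C to 39 without male SOD1G93A B and 42 without female WT A. It was 6 without male WT B or male SOD1G93A A, 7 without female SOD1G93A B and 8 without female SOD1G93A A.

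In the Schwann and meningeal group 2 of 55 members were called between pools (0.611% of all genes), both lower in C. Rpl41, the smallest RP, was at 180, 223, 196 and 277 CPM in A, 151, 277, 183 and 173 in B and 104, 79.6, 92.6 and 104 in C (adjusted p = 0.0806 by limma). Rpl23 was at 158, 192, 274 and 212 CPM in A, 136, 69.1, 116 and 75.3 in B and 73.1, 79.6, 74.6 and 113 in C (adjusted p = 0.0815 by limma). The values of male WT B, second in pool B, rest on 4 UMIs of Rpl41 and 1 UMI of Rpl23. All 55 members were lower in C than in A, 23 of the 55 were at an unadjusted p under 0.05, and edgeR and DESeq2 called 3 each. The count was 0 without male WT B or any of female SOD1G93A A, female SOD1G93A C and male SOD1G93A A, 1 without female WT C, male WT A or male WT C, 6 without female SOD1G93A B, 10 without female WT B and 11 without male SOD1G93A B.

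The fits called 0 members between pools in oligodendrocytes (0.0475% of all genes, 13 of 54 at an unadjusted p under 0.05), astrocytes (0.0856%, 23 of 59), endothelial nuclei (0.0393%, 31 of 66) and microglia (0.0217%, 6 of 24). DESeq2 called 2 in endothelial nuclei and 0 in the others, and edgeR 0 in all 4. In endothelial nuclei the count was 24 without female WT A and 1 without female SOD1G93A A or B. Members were lower in C than in A for 52 of 54, 57 of 59, 65 of 66 and 22 of 24 in these types, with medians of −0.63, −0.47, −0.54 and −0.82. Percents of all genes in the pool fits are those called at FDR < 0.1. For these fits the share of all genes at an unadjusted p under 0.05, the share lower in C and the median of all genes are not given. Among the other gene groups in neurons, 21 of 71 respiratory chain genes differed between pools, as did 4 of 17 other TOP genes, 4 of 55 translation factors, 2 of 75 mitochondrial RP genes, 0 of 20 assembly genes and 1 of 8 nuclear RNAs (Neat1, lower in B). Cox8a (−0.94) and Atp5g1 (−1.14) were lower in C than in A like the RP genes.

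**Figure D4:**
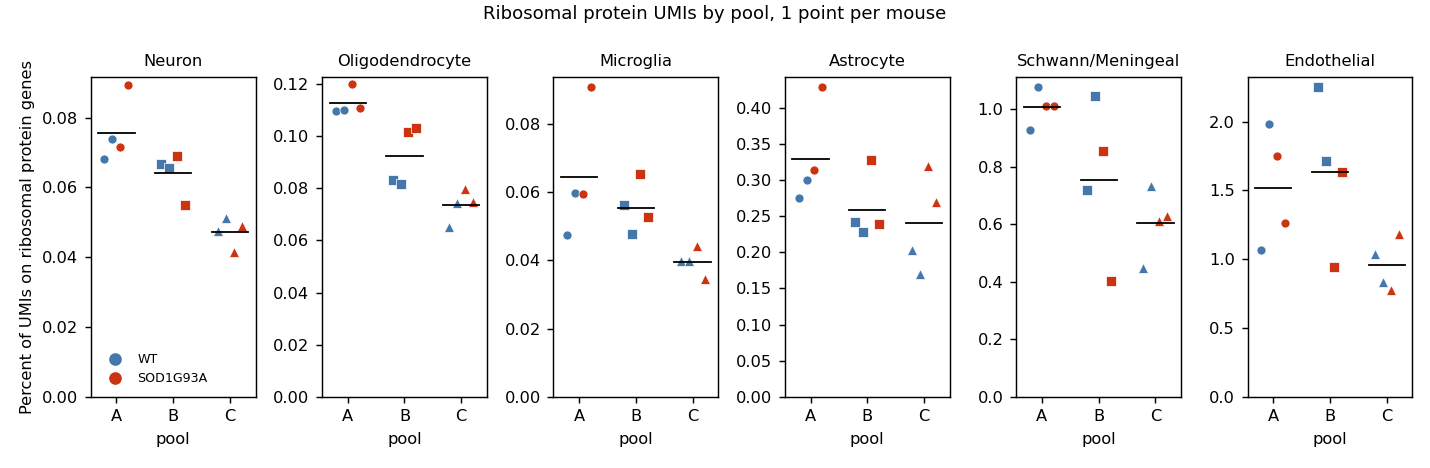
Percent of UMIs on RP genes by pool in 6 cell types, 1 point per mouse coloured by genotype, axes from 0. In neurons pool C (0.0416 to 0.0512%) lies below every mouse of pools A and B, and in oligodendrocytes the 3 pools do not overlap.

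The comparison of genotypes asked whether the transgene was accompanied by a change of the RP genes at 90 days. Of 8 types tested, members were called in astrocytes, where 4 of 59 were higher in SOD1G93A mice at FDR < 0.1 and 0 lower, beside 2.29% of all astrocyte genes called and 1.38% called higher. Rps3, which sits where the mRNA enters the small subunit, had a median of 97.5 CPM (70.4 to 130) in SOD1G93A and 64.7 CPM (51.5 to 70.2) in WT mice, and the groups met without overlapping (log2 fold change 0.61 ± 0.16 SE, adjusted p = 0.0501 by limma). Rpl32 was at 73.0 CPM (39.9 to 98.9) against 38.4 (26.8 to 54.2), with a log2 fold change of 0.69 ± 0.17 (adjusted p = 0.0464 by limma). Rpl14 was at 56.0 CPM (45.2 to 75.1) against 36.9 (24.8 to 52.1), a log2 fold change of 0.65 ± 0.17 (adjusted p = 0.0554 by limma). Rpl10a, of the stalk through which deacylated tRNA leaves, was at 48.2 CPM (34.7 to 61.1) against 28.9 (24.8 to 44.7), a log2 fold change of 0.58 ± 0.17 (adjusted p = 0.0918 by limma). Rpl10a shared 89.4% of its 90-base windows with other genes, so that its level is uncertain. Rpl32 shared 1.61% and Rps3 and Rpl14 none.

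Each of the 4 was higher in SOD1G93A in 6 of 6 pairs of mice of like sex and pool. Over the 59 members, 55 had a positive log2 fold change, 25 had an unadjusted p under 0.05, all of them higher (7.77% of all genes tested were higher at that p), and the median was 0.32 against 0.02 over all genes. The RP share was 0.316% ± 0.0652 in SOD1G93A (0.238 to 0.429%) and 0.236% ± 0.0472 in WT mice (0.169 to 0.300%), higher in 6 of 6 pairs with overlap between the groups. The mean paired difference was 0.0800% ± 0.0465 (SD of 6 differences), with p = 0.0313 in an exact two-sided permutation test of the pairs, the smallest that 6 pairs allow, and an adjusted p of 0.125 over the 8 types tested in this way. This test was added after the values were seen. Of the other lists, 1 respiratory chain gene of 68 was called (Ndufa11, log2 fold change 0.91), and 0 of 52 mitochondrial RP genes, 0 of 45 translation factors, 0 of 17 other TOP genes, 0 of 10 assembly genes and 0 of 8 nuclear RNAs were. In these lists without a call, 7, 10, 5, 1 and 1 were at an unadjusted p under 0.05 in either direction. That count is not given for the respiratory chain genes.

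Percent.mt of astrocytes moved with genotype. Its mean was 2.41 (2.20 to 2.82) in SOD1G93A and 1.62 (1.34 to 1.84) in WT mice, with no overlap and higher in 6 of 6 pairs. With the mean percent.mt of the mouse as a covariate the count of called members was 0 and the median log2 fold change 0.08. Since this covariate did not overlap between the genotypes, the fit cannot tell its part from that of genotype. In the nuclei of the lower percent.mt group of each mouse the median was 0.60 over 39 members tested, of which 1 was called (2.16% of all genes). That group was cut at the median of each mouse and so was not matched in percent.mt between the genotypes. In nuclei of like percent.mt the genotypes were close at the ends, with 0.107% ± 0.0347 in WT and 0.115% ± 0.0312 in SOD1G93A under 0.5, 0.403% ± 0.0675 and 0.406% ± 0.0809 between 2 and 5, and 0.888% ± 0.208 and 0.904% ± 0.206 at 5 and above. Between 0.5 and 1 the values were 0.198% ± 0.0249 in WT and 0.236% ± 0.0888 in SOD1G93A, and between 1 and 2 they were 0.225% ± 0.0485 and 0.291% ± 0.117, with overlap of the genotypes in both bins (0.164 to 0.228% and 0.141 to 0.381% in the first, 0.165 to 0.286% and 0.172 to 0.488% in the second). SOD1G93A was higher in 4, 4, 3 and 2 of 6 pairs in the 4 bins below 5, and the smallest p was 0.281 (exact two-sided permutation test of the paired differences, adjusted p = 0.75 over 4 bins).

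The make-up of the astrocytes by sub-cluster moved with genotype as well. Sub-cluster 4, of highest RP share, held a median of 16.2% (7.87 to 33.3%) of the astrocyte nuclei of SOD1G93A mice and 6.04% (2.63 to 17.6%) of those of WT mice. Sub-cluster 1, of lowest RP share, held 14.4% (4.81 to 21.6%) against 38.2% (26.9 to 42.6%), with no overlap. Within sub-clusters the RP share was 0.280% ± 0.0416 in WT and 0.262% ± 0.0800 in SOD1G93A in sub-cluster 0, 0.113% ± 0.0316 and 0.108% ± 0.0196 in sub-cluster 1, 0.111% ± 0.0368 and 0.114% ± 0.0302 in sub-cluster 2, 0.339% ± 0.0778 and 0.351% ± 0.0433 in sub-cluster 3, and 0.978% ± 0.242 and 0.882% ± 0.274 in sub-cluster 4. In all 5 the difference was smaller than the spread between mice. The sub-clusters were drawn from expression in the same nuclei and differ in RP share. A comparison within them is therefore not independent of that share. Some mice had as few as 3 nuclei in sub-clusters 2 and 4 and 5 in sub-cluster 1. Without sub-cluster 4, an alternative chosen after the data were seen, 0 members were called and the median was 0.22. The RP share was then 0.229% ± 0.0465 in SOD1G93A and 0.189% ± 0.0377 in WT mice.

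The count of called members in astrocytes depended on the tool and on single mice. It was 3 with edgeR and 0 with DESeq2, and leaving out single mice gave 0 without female SOD1G93A B, female SOD1G93A C or male SOD1G93A A, 1 without female WT A, female WT C, male WT B or male WT C, 2 without female WT B or male SOD1G93A C, 3 without male WT A, 10 without male SOD1G93A B and 13 without female SOD1G93A A. The median over members was above that of all genes in each of these.

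**Figure D5:**
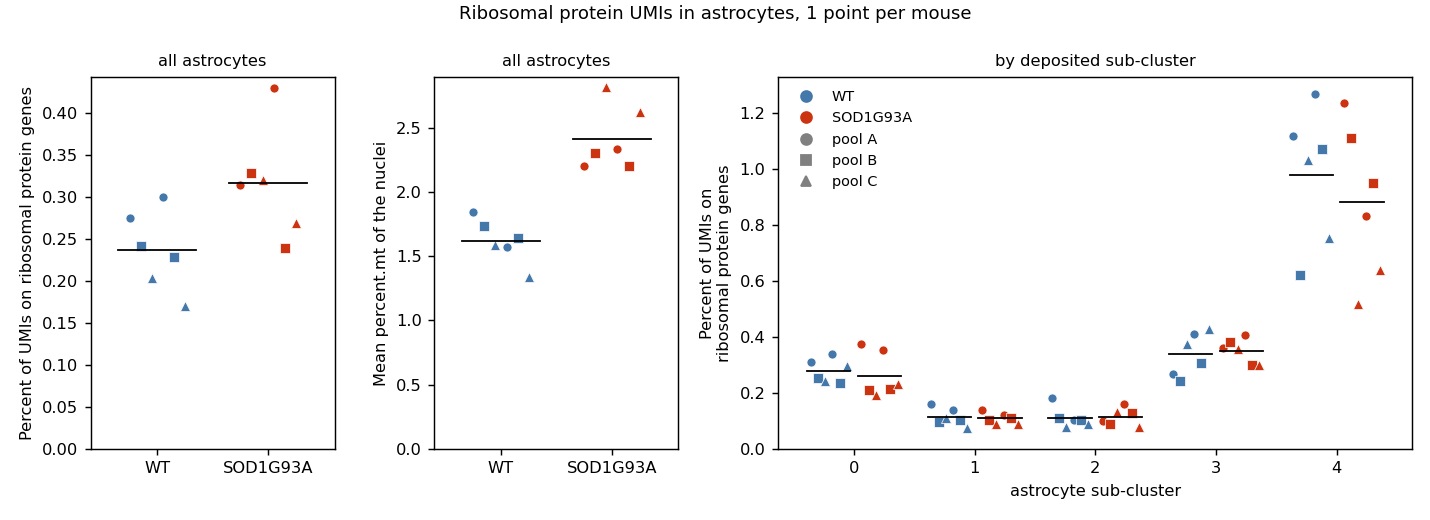
Astrocytes of WT and SOD1G93A mice, 1 point per mouse, with the percent of UMIs on RP genes and percent.mt over all astrocytes, and the RP share by deposited sub-cluster. Percent.mt does not overlap between the genotypes (1.34 to 1.84 in WT, 2.20 to 2.82 in SOD1G93A), while the RP share overlaps in every sub-cluster.

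In the other 7 types limma called 0 members between genotypes. Shares of all genes given for these types are those called at FDR < 0.1. The share of all genes at an unadjusted p under 0.05 is not given for them. In neurons 0 of 73 members were called (0.0255% of all genes called) and 0 were at an unadjusted p under 0.05. The median log2 fold change was 0.02 with a median SE of 0.14, and the smallest p belonged to Rpl9 (−0.35 ± 0.18) and Rps21 (−0.37 ± 0.19). The neuronal RP share was 0.0621% ± 0.0104 in WT and 0.0625% ± 0.0174 in SOD1G93A. In oligodendrocytes 0 of 54 were called (0.0475% of all genes called) and 4 were at an unadjusted p under 0.05, all higher, led by Rps4x (0.68 ± 0.18, adjusted p = 0.661 by limma) and Rpl4 (0.81 ± 0.31, adjusted p = 0.981 by limma). Their RP share was higher in SOD1G93A in 6 of 6 pairs, at 0.0983% ± 0.0176 against 0.0873% ± 0.0186. The mean paired difference was 0.0110% ± 0.00894 (SD of 6 differences), with p = 0.0313 in the exact permutation test of the pairs, the smallest it can give, and an adjusted p of 0.125 over 8 types.

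In microglia 0 of 24 were called (0.0759% of all genes called) and 5 were at an unadjusted p under 0.05, all higher. Rpl24, a large-subunit protein at the face between the subunits, was at 25.5, 20.0, 2.59, 22.4, 13.0 and 4.09 CPM in SOD1G93A mice and 0, 5.22, 4.43, 8.26, 8.04 and 8.85 CPM in WT mice, on 87 and 74 UMIs (log2 fold change 1.55 ± 0.35, adjusted p = 0.106 by limma). Both SOD1G93A mice of pool C lay below 5 of the 6 WT mice. Rpsa followed with 0.71 ± 0.22 (adjusted p = 0.292 by limma). The count was 1 without female WT A, female WT C or male SOD1G93A C.

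Endothelial nuclei had the opposite sign, with 62 of 66 members lower in SOD1G93A, a median of −0.23 and a median SE of 0.21. Of these 0 were called (0.0131% of all genes called) and 3 were at an unadjusted p under 0.05, led by Rps7 (−0.77 ± 0.27, adjusted p = 0.98 by limma) and Rpl6 (−0.45 ± 0.19, adjusted p = 0.98 by limma). The share was 1.26% ± 0.381 in SOD1G93A and 1.48% ± 0.580 in WT mice, lower in 4 of 6 pairs. In the Schwann and meningeal group 0 of 55 were called (0.036% of all genes called). At an unadjusted p under 0.05 there was 1, Rps7 at −1.01 ± 0.34 with 3 to 54 UMIs per mouse, followed by Rps26 at −0.45 ± 0.26. In OPCs 0 of 2 tested members were called (0.0411% of all genes) and in motor neurons 0 of 1, Rpl11 at 0.04 ± 0.27 (3.07% of all genes), with 0 at an unadjusted p under 0.05 in both. The RP share of motor neurons was 0.0593% ± 0.0338 in SOD1G93A (1 to 6 nuclei per mouse) and 0.0360% ± 0.00604 in WT mice (4 to 11 nuclei), higher in 4 of 6 pairs (adjusted p = 0.25, exact permutation test of the pairs). Their mean percent.mt was 1.42 and 0.348, higher in SOD1G93A in 5 of 6 pairs, and its part in the share was not tested. In the Schwann and meningeal group percent.mt was 2.26 in SOD1G93A and 2.77 in WT mice, higher in 0 of 6 pairs. The RP share was higher there in 3 of 6 pairs. In oligodendrocytes percent.mt was 0.537 against 0.543, higher in 3 of 6 pairs. It was higher in 3 of 6 pairs in neurons and in microglia, 2 in endothelial nuclei and 4 in OPCs. Without the count filter 1 of 78 members was called in motor neurons (2.31% of all genes), with a median of 0.58. With the filter, edgeR and DESeq2 also called 0 members in these 7 types.

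Few members were called in neuron sub-types and glial sub-clusters when the count filter was used. Over 7 sub-types limma called 0 of 252 tests of members, with 10 at an unadjusted p under 0.05 (0.0267% of all tests called), and edgeR and DESeq2 called 0. Over 12 sub-clusters 1 of 168 tests was called (0.113% of all tests), Rpl24 in microglial sub-cluster 0 (log2 fold change 1.57 ± 0.37, adjusted p = 0.0951 by limma), and 9 were at an unadjusted p under 0.05. Without the count filter 20 of 916 tests of members were called over the 12 sub-clusters (17 higher and 3 lower), where 3.72% of all tests were called. Of these 14 higher and 3 lower were in astrocyte sub-cluster 1, where 37.6% of all genes tested were called. With the filter, edgeR and DESeq2 called 0 over the 12 sub-clusters. Limma also called 0 over them without any 1 of 8 mice, so that the call of Rpl24 was lost. These were every mouse but female WT A, female WT C, male SOD1G93A B and male SOD1G93A C. Between the sexes limma called 0 of 334 tests of members (8 at an unadjusted p under 0.05, 0.159% of all tests called), and in the interaction of genotype and sex 0 of 334 (7 at an unadjusted p under 0.05, 0.00589% of all tests called), with 0 by edgeR and DESeq2 in both.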

How the data were processed

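As described by the authors, 10x libraries were made from hashtagged nuclei, demultiplexed with bcl2fastq 2.20.0.422 and processed with Cell Ranger 3.1, STAR 2.5.1b, Seurat 4.0.3 and R 4.0.3 on mm10, with introns counted. The authors deposited raw counts (UMIs per gene and nucleus, not normalized), from which mitochondrial genes had been removed, so that RP shares exclude mitochondrial UMIs. Per the deposited table, percent.mt is the percent of UMIs on mitochondrial genes before that removal. Nuclei with few genes, over 10% mitochondrial UMIs or ambiguous hashtags had been discarded by the authors. Doublets within a mouse were not sought. Cell types, sub-types and sub-clusters are the deposited ones.

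Here counts were summed per mouse and type, for neuron sub-types where over 200 nuclei were deposited and for sub-clusters where every sex and genotype group had at least 2 mice. Fits used R 4.3.3 with limma 3.58.1 (filterByExpr with a minimum count of 10, TMMwsp scaling, voom, robust eBayes), terms for sex and genotype group and for pool, and Benjamini-Hochberg adjustment over all genes of a type at FDR < 0.1. The pool was tested by the F test of its terms, and percent.mt by groups above and below the median of each mouse with a term for the mouse. Alternatives used edgeR 4.0.16, DESeq2 1.42.0, other filters and scalings, and fits without each mouse. The pipeline was tested on simulated data. Intervals of counting error are not given for sums over many nuclei.

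Pools are batches in the labels and pair the mice. Deviations from the group mean correlated with a median r of 0.246 between neurons of mice of 1 pool and −0.129 between pools (12 of 18 same-pool pairs above 0.1), 0.116 and −0.0513 in oligodendrocytes, and 0.0298 and −0.0143 in astrocytes. Over the members alone the medians were 0.0814 and −0.0494 in neurons and 0.0444 and −0.0491 in astrocytes, but −0.0752 and 0.0525 in oligodendrocytes and −0.0653 and 0.0725 in microglia. Each group holds 1 mouse per pool, so that deviations from its mean cancel out over the pools. The median between pools thus tends to take the opposite sign and is not a separate observation.

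Members and gene lists were chosen with earlier results of these data known. Named with values are the 5 members of highest and of lowest CPM, every member called in a fit (where over 10, the 5 of smallest adjusted p), where a genotype fit called 0 the 2 of smallest p, the stalk proteins, Rpsa and the tissue-limited paralogs. For other lists 2 to 4 genes of smallest adjusted p are examples. Some genes that these rules select are not reported here.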

Additional observations from a re-analysis of the deposited data

Results flagged for a closer look

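Of 90 groups of 4 or 6 mice examined, 6 held a mouse whose distance from the nearest other, relative to the range of the group, exceeded Dixon's critical value, where chance gives about 1 in 20. In pool B the RP share of astrocytes was 0.328% in female SOD1G93A B against 0.228 to 0.242% in the other 3 mice, and that of motor neurons was 0.0497% in the same mouse against 0.0354 to 0.0366%. In pool A the RP share of oligodendrocytes was 0.120% in female SOD1G93A A against 0.110 to 0.111% in the others. Among WT mice, Rpl10a in astrocytes was at 44.7 CPM in female WT A against 24.8 to 31.7 CPM, and Rps7 in the Schwann and meningeal group at 207 CPM in male WT B, a value that rests on 3 UMIs in 13 nuclei, against 27.2 to 81.0 CPM. In pool C, Rpl23 in the Schwann and meningeal group was at 113 CPM in male SOD1G93A C against 73.1 to 79.6 CPM.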

How the results depend on the processing

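Of 187 counts of called members recomputed under other settings, 159 stayed within 1.5 times the reported count and 28 moved. Reported counts of 0 that stayed at 0 are among the 159. At FDR < 0.05 the count fell to 6 for the pool in neurons, 1 for the genotype in astrocytes and 0 for the pool and for percent.mt in the Schwann and meningeal group. Without the count filter it was 2 for the genotype in astrocytes, 1 in motor neurons and 20 over the sub-clusters, 0 for the pool and for percent.mt in the Schwann and meningeal group, 1 for the pool in endothelial nuclei, and 59 and 67 for percent.mt in oligodendrocytes and astrocytes, where more members were tested. DESeq2 gave 0 for the genotype in astrocytes and over the sub-clusters, 2 for the pool in endothelial nuclei and 2 for percent.mt in the Schwann and meningeal group, edgeR 0 over the sub-clusters, and RLE scaling 2 for the latter. Library size alone gave 9 for the genotype in astrocytes, 1 in microglia and 2 for percent.mt in the Schwann and meningeal group. With percent.mt as covariate the count was 0 for the genotype in astrocytes and for the pool in the Schwann and meningeal group, in the lower group of percent.mt it was 1 for the genotype in astrocytes (median log2 fold change 0.60 over 39 members), and without sub-cluster 4 it was 0. Without the block for the pool the astrocyte count was 1, and without the block for the mouse the percent.mt counts were 0 in the Schwann and meningeal group and in endothelial nuclei. Neither block changed another call by over 1.5 times. The cause of these changes was not tested. Leaving out 1 mouse at a time gave 2 to 42 for the pool in neurons, 0 to 11 in the Schwann and meningeal group and 0 to 24 in endothelial nuclei, 0 to 13 for the genotype in astrocytes, 0 to 1 in microglia and over the sub-clusters, and for percent.mt 60 to 63 in neurons, 20 to 27 in oligodendrocytes, 38 to 45 in astrocytes, 43 to 52 in endothelial nuclei and 0 to 13 in the Schwann and meningeal group. RP shares averaged over nuclei were 0.0813% in neurons, 0.124% in oligodendrocytes and 0.114% in OPCs. The fits in OPCs (181 nuclei) and motor neurons (67 nuclei) are limited, since 2 and 1 members could be tested.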
